A study of Mus musculus with 45 samples.

Results

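The genes described here are the regulators and enzymes of cholesterol and fatty acid synthesis. They are 33 of the 55450 genes in the count table of lymphocytes sorted from immunized wildtype (WT) mice and mice without sphingosine-1-phosphate receptor 4 (S1PR4-/-). They were chosen by symbol for their functions. The list holds 4 regulators, 8 enzymes that lead from acetyl-CoA to squalene, 11 that lead from squalene to cholesterol, 1 sterol carrier, 4 enzymes of acetyl-CoA supply and fatty acid synthesis, and 5 of fatty acid elongation and desaturation. All 33 symbols were in the table.

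Cells make cholesterol and fatty acids from acetyl-CoA under the control of the sterol regulatory element-binding proteins (SREBPs), which are made as precursors in the endoplasmic reticulum membrane. When sterol is scarce, SCAP escorts the precursors to the Golgi, where they are cut, and the released part enters the nucleus and switches on the genes of both pathways. When sterol is plentiful, INSIG proteins hold SCAP and its cargo back. Lymphocytes that enter division need new membrane, and growing T and B cells are known to draw on this pathway.

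Mice of strain B6.129P2-S1pr4tm1Dgen/J, backcrossed at least 10 times to C57/BL6, lacked S1pr4 in every cell, and WT littermates served as controls. Animals of both sexes, 8 to 12 weeks old, received 50 ug ovalbumin and 5 ug lipopolysaccharide in 20 ul of incomplete Freund's adjuvant in the hind footpad, so all 8 groups came from immunized mice and none from unimmunized ones. From the draining popliteal nodes, T follicular helper (Tfh) cells were sorted as PD1+ CXCR5+ and non-Tfh cells as PD1- CXCR5- CD4+ T cells on day 6. Germinal centre (GC) B cells were sorted as GL7+ Fas+ and non-GC B cells as GL7- Fas- B220+ cells on day 9. There were 6 samples per group, but 5 of WT and 4 of S1PR4-/- non-GC B cells. The labels do not say which samples share an animal, so p-values measure the spread between samples. Because the knockout was present in all cells, an effect inside a lymphocyte and one of its surroundings cannot be told apart.

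RNA-sequencing gave between 26299429 and 45548215 expected counts per sample (median 34188292), and levels are given as CPM (counts scaled to a fixed library total) after TMM normalization over all 45 samples. S1pr4 had 0 to 40 counts in S1PR4-/- samples and 505 to 6305 in WT samples. The summed CPM of 8 Tfh markers was 2648 to 4086 in Tfh cells and 203 to 482 in non-Tfh cells, and that of 7 GC B cell markers was 1255 to 2199 in GC B cells and 122 to 184 in non-GC B cells. The summed CPM of 12 T cell markers was 7053 to 9617 in the T cell samples and 221 to 354 in the B cell samples. In these bulk samples, fewer cells of a type and less RNA per cell cannot be told apart.

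Per kilobase of exon, the steps of the pathway differed widely in level. In WT Tfh cells the highest mean levels were those of Lbr (153 CPM per kb), which encodes a nuclear membrane protein that is also a sterol reductase, and Acly (98.7), ATP citrate lyase. Scd2 had 52.5, Srebf2 39.6 and Cyp51 29.4 CPM per kb in the same cells, and Acaca, acetyl-CoA carboxylase, had the lowest mean level at 0.781. In WT non-GC B cells the highest level was that of Scd1, a stearoyl-CoA desaturase, at 235 CPM per kb, above Lbr at 98.4. Scd1 had 2.08 CPM per kb in WT Tfh cells and 0.160 in WT non-Tfh cells.

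Germinal centre populations were compared with the other cells of their lineage to ask how lipid synthesis genes differ between these states. In WT mice, 16 of the 33 genes were higher and 1 was lower in Tfh cells than in non-Tfh cells, beside 22.8% higher and 20.4% lower among all genes tested. In S1PR4-/- mice, 16 of the 32 genes tested were higher and 1 was lower, beside 22.3% and 21.1%. In GC B cells against non-GC B cells, 20 of 33 were higher and 2 lower in WT mice, beside 24.8% and 23.1% of all genes, and 21 were higher and 2 lower in S1PR4-/- mice, beside 25.3% and 22.9%. Calls are those of edgeR's quasi-likelihood test and needed a difference of more than 1.5-fold together with a Benjamini-Hochberg FDR, taken over all genes tested, under 0.05. At the FDR alone, 26 members passed in WT and 28 in S1PR4-/- Tfh cells, beside 68.7% and 70.7% of all genes, and 26 and 25 in GC B cells, beside 67.2% and 64.6%.

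The median log2 fold change (log2 change below) of the genes was 0.58 in WT Tfh cells, 0.61 in S1PR4-/- Tfh cells, 1.01 in WT GC B cells and 0.97 in S1PR4-/- GC B cells. Over all genes tested the median was 0, 0.01, 0 and 0.03 in the same comparisons. The 2 genotypes shared 15 called genes in Tfh cells (88.2% of each list) and 22 in GC B cells (100% of the WT list and 95.7% of the S1PR4-/- list). In all 4 comparisons, 11 genes were higher, and these were Insig1, Hmgcs1, Pmvk, Idi1, Fdps, Fdft1, Sqle, Cyp51, Stard4, Fads1 and Fads2. In S1PR4-/- Tfh cells, Insig1 fell just under 1.5-fold (0.56 to 0.57) without either of 2 samples, and Hmgcs1 (0.56 to 0.58) without any of 3. Of all genes tested in the 4 comparisons, 10.7% were higher in each of them. Acss2 was the member lower in all 4, beside 9.61% of all genes. The samples of the paired groups did not overlap for 22 and 21 members in WT and S1PR4-/- T cells, beside 48% of all genes in each, and for 21 and 24 in B cells, beside 50.1% and 53.3%. Genes of cell division moved with the same groups: all 10 of a proliferation list were higher in each of the 4 comparisons, with summed CPM of 2694 to 4577 in Tfh, 345 to 868 in non-Tfh, 2862 to 5520 in GC B and 252 to 318 in non-GC B cells. Markers of other cells moved with them too. In WT Tfh cells 12 of 12 B cell, 6 of 7 plasma cell and 4 of 6 myeloid markers tested were higher than in non-Tfh cells, and in WT GC B cells 7 of 8 plasma cell and 5 of 6 myeloid markers were higher and 9 of 12 B cell markers lower than in non-GC B cells. Summed plasma cell markers were 306 to 743 CPM in Tfh and 2387 to 18950 CPM in GC B cells, with 894 to 1268 CPM in non-GC B cells. The part of proliferation and marker genes in the result was not tested.

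**Figure D1:**
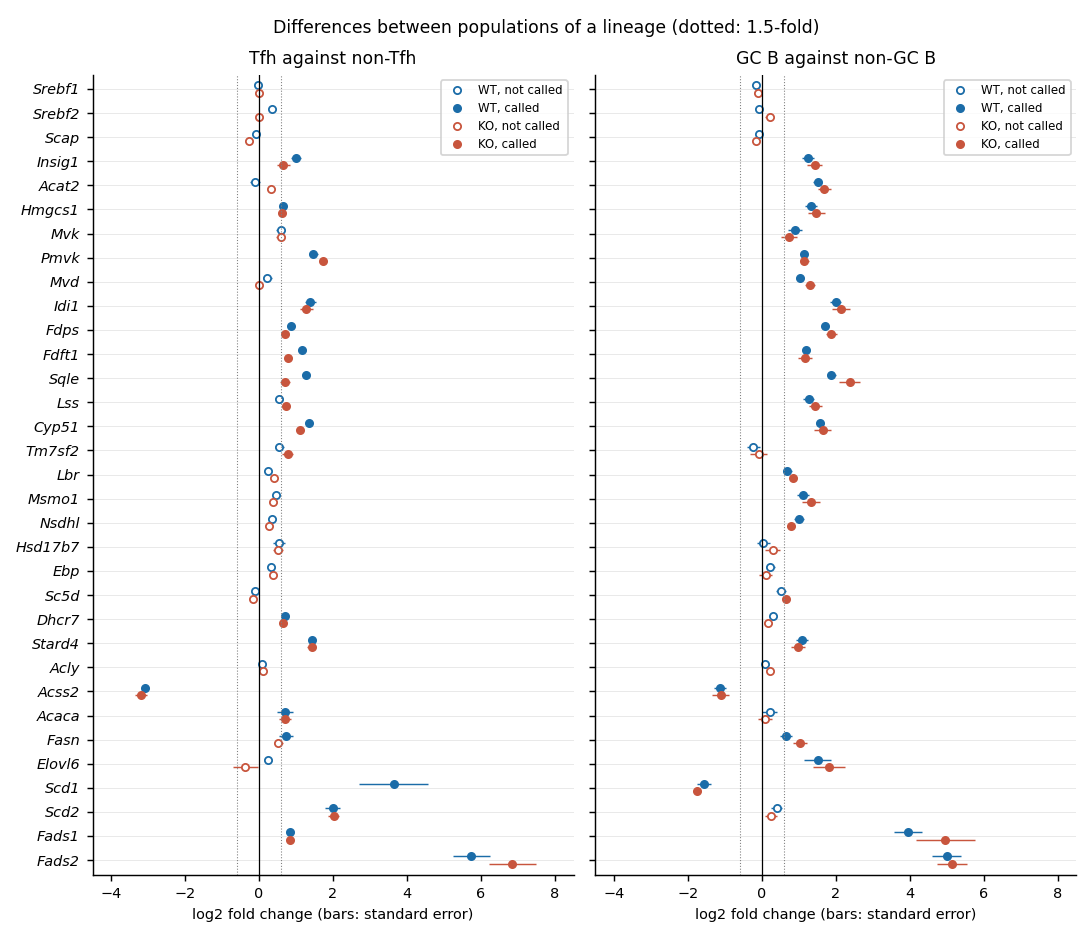
Log2 fold changes of the 33 genes between populations of a lineage, Tfh against non-Tfh cells on the left and GC B against non-GC B cells on the right, in WT (blue) and S1PR4-/- (KO, red) mice. Filled points were called, open points were not, bars are standard errors and dotted lines mark 1.5-fold, and most filled points lie right of 0 with Acss2 on the left in both panels.

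Of the 4 regulators, Insig1, which holds SREBPs back and is itself an SREBP target, was higher in both germinal centre populations. Its level was 12.2 to 21.4 (median 15.9) CPM in WT non-Tfh cells and 32.0 to 35.1 (median 34.2) CPM in WT Tfh cells. In S1PR4-/- mice it was 15.8 to 28.3 (median 21.7) CPM in non-Tfh cells and 25.7 to 44.1 (median 36.0) CPM in Tfh cells, so the groups did not overlap in WT but did in S1PR4-/- mice. The log2 change in Tfh cells was 0.99 ± 0.13 (SE, edgeR adjusted p = 6.13e-06) in WT and 0.66 ± 0.17 (SE, edgeR adjusted p = 0.00359) in S1PR4-/- mice. In B cells Insig1 had 21.97, 15.9, 23.3, 18.9 and 17.6 CPM in the 5 WT non-GC samples and 36.7 to 69.2 (median 42.4) CPM in WT GC B cells, a log2 change of 1.24 ± 0.17 (SE, edgeR adjusted p = 2.82e-05). The S1PR4-/- difference was 1.43 (standard error 0.20), and B cell groups did not overlap in either genotype. Srebf1, Srebf2 and Scap, which encode the 2 SREBP precursors and their escort, were called in none of the 4 comparisons. Their log2 changes lay between -0.27 (Scap, S1PR4-/- Tfh cells) and 0.36 (Srebf2, WT Tfh cells, edgeR adjusted p = 0.00274, under 1.5-fold). Srebf1 stayed between 121 and 203 CPM in all 45 samples.

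All 8 genes from acetyl-CoA to squalene were higher in GC B cells than in non-GC B cells in both genotypes. Of all genes, 24.8% were higher in WT and 25.3% in S1PR4-/- mice. The median log2 change of the 8 was 1.26 in WT and 1.38 in S1PR4-/- mice. In Tfh cells 5 of the 8 were higher in each genotype, beside 22.8% of all genes in WT and 22.3% in S1PR4-/- mice. Idi1, the isomerase of the first isoprenoid units, changed most of these genes in GC B cells. It had 38.6, 43.3, 26.5, 38.3 and 32.8 CPM in the 5 WT non-GC B samples and 101 to 185 (median 144) CPM in WT GC B cells. The S1PR4-/- values were 21.5, 35.8, 22.9 and 44.1 CPM in the 4 non-GC B samples and 105 to 187 (median 129) CPM in GC B cells. No non-GC B sample reached a GC B sample, and the log2 change was 1.99 ± 0.16 (SE, edgeR adjusted p = 3.94e-07) in WT and 2.14 ± 0.25 (SE, edgeR adjusted p = 1.95e-05) in S1PR4-/- mice. In T cells Idi1 was 20.5 to 33.9 (median 27.1) CPM in WT non-Tfh and 58.5 to 85.3 (median 73.2) CPM in WT Tfh cells, a log2 change of 1.39 ± 0.14 (SE, edgeR adjusted p = 4.85e-07).

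Fdps, farnesyl diphosphate synthase, followed. Its level was 40.7, 45.3, 38.1, 37.8 and 38.9 CPM in WT non-GC B samples and 113 to 156 (median 129.6) CPM in WT GC B cells, with a log2 change of 1.71 ± 0.09 (SE, edgeR adjusted p = 9.44e-09). In WT T cells it was 51.9 to 62.7 (median 57.4) CPM in non-Tfh and 88.3 to 126 (median 107) CPM in Tfh cells, with a log2 change of 0.87 ± 0.08 (SE, edgeR adjusted p = 1.92e-07). Groups did not overlap in either lineage or genotype. Hmgcs1, HMG-CoA synthase, was 54.9 to 68.4 (median 62.2) CPM in WT non-Tfh and 85.5 to 113 (median 102) CPM in WT Tfh cells, a difference of 0.64 ± 0.08 (SE, edgeR adjusted p = 8.79e-06) on the log2 scale. In B cells its log2 change was 1.33 in WT and 1.47 in S1PR4-/- mice (standard errors 0.16 and 0.23).

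Pmvk encodes phosphomevalonate kinase, a middle step of the pathway. It was 9.61 to 14.2 (median 10.7) CPM in WT non-Tfh and 26.7 to 38.9 (median 33.05) CPM in WT Tfh cells, a log2 change of 1.46 ± 0.12 (SE, edgeR adjusted p = 7.03e-08). In S1PR4-/- T cells the log2 change was 1.72 (standard error 0.08), and in GC B cells it was 1.14 in WT and 1.15 in S1PR4-/- mice. Fdft1, squalene synthase, rose by 1.17 and 0.79 on the log2 scale in WT and S1PR4-/- Tfh cells and by 1.18 and 1.16 in GC B cells. Acat2, the thiolase of the first step, and Mvd, the decarboxylase, were called in GC B cells only among these 4 comparisons. Acat2 was 50.4, 62.9, 43.2, 63.0 and 53.2 CPM in WT non-GC B samples and 129 to 178 (median 156) CPM in WT GC B cells, with a log2 change of 1.51 ± 0.12 (SE, edgeR adjusted p = 2.95e-07). In Tfh cells its log2 difference was -0.11 in WT (95% interval -0.39 to 0.17) and 0.33 in S1PR4-/- mice (95% interval 0.19 to 0.47). Mvd had log2 changes of 1.03 and 1.3 in GC B cells and differences of 0.22 and 0.01 in Tfh cells. Mvk, mevalonate kinase, passed the test in GC B cells (0.89 and 0.73) and was at 0.58 in Tfh cells of both genotypes, just under the fold threshold of 0.585 on the log2 scale. As many as 43.75% of the 31-base words of Acat2 transcripts also occur in another gene (Acat3), 27.94% of Fdps, 31.91% of Fdft1 and 27.09% of Idi1. Their counts can thus depend on how reads were shared out. Words were counted on either strand although the libraries were stranded, so these shares can be too high. For Fdft1 the gene sharing most was Ctsb, with 17.61%.

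**Figure D2:**
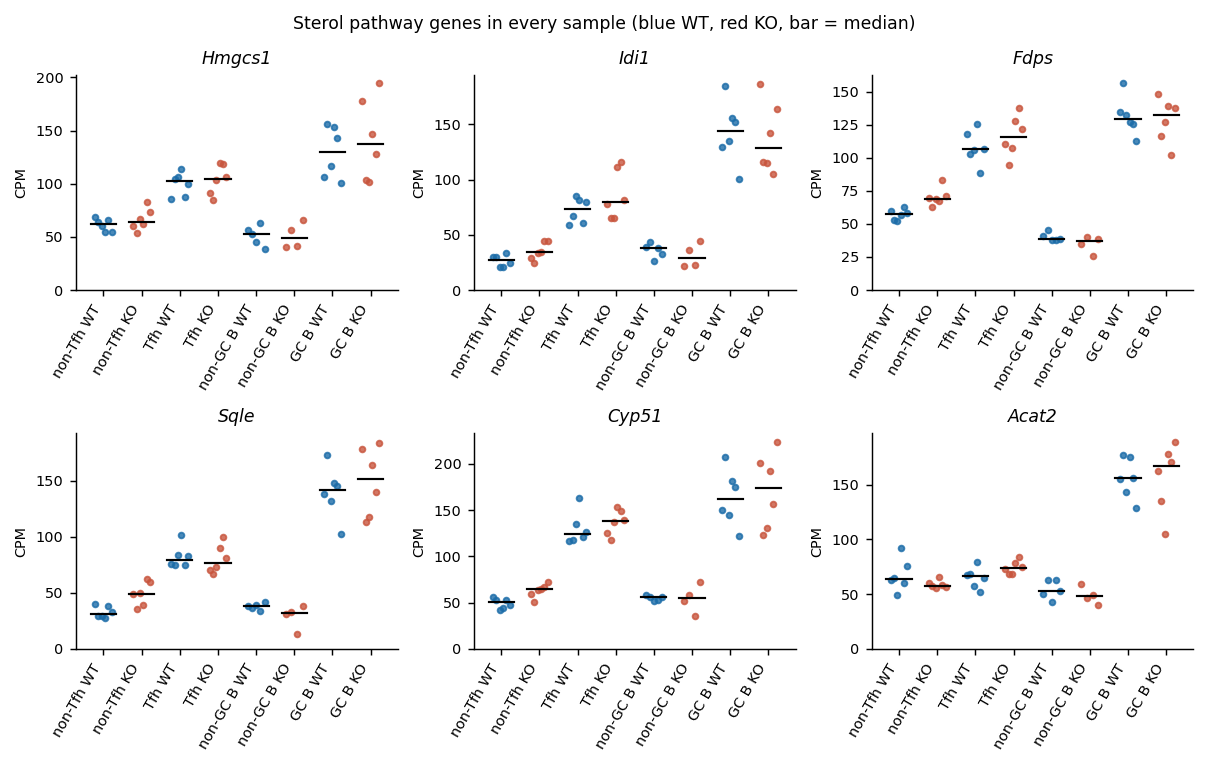
CPM of 6 sterol pathway genes in each of the 45 samples, by population and genotype (blue WT, red KO, bar at the median, linear axis from 0). Idi1, Fdps, Sqle and Cyp51 are higher in Tfh than in non-Tfh samples and in GC B than in non-GC B samples, and Acat2 stands high in GC B samples.

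From squalene to cholesterol, 6 of 11 genes were higher in WT GC B cells and 7 in S1PR4-/- GC B cells, beside 24.8% and 25.3% of all genes. In WT and S1PR4-/- Tfh cells 3 and 5 of the 11 were higher, beside 22.8% and 22.3% of all genes. Sqle, squalene epoxidase and a rate-controlling step, had 38.4, 36.0, 39.3, 33.8 and 42.1 CPM in WT non-GC B samples and 103 to 173 (median 142) CPM in WT GC B cells, a log2 change of 1.88 ± 0.12 (SE, edgeR adjusted p = 3.93e-08). In S1PR4-/- B cells it had 31.3, 32.5, 13.2 and 38.0 CPM in the 4 non-GC samples and 113 to 184 (median 152) CPM in GC B cells, a log2 change of 2.37 ± 0.28 (SE, edgeR adjusted p = 2.29e-05), and 1 of the non-GC samples stood far below the other 3. In WT T cells Sqle was 27.2 to 40.2 (median 31.1) CPM in non-Tfh and 74.6 to 101 (median 79.2) CPM in Tfh cells, a log2 change of 1.26 ± 0.11 (SE, edgeR adjusted p = 8.22e-08). All Sqle groups were apart in both lineages and genotypes.

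Cyp51, lanosterol demethylase, was 41.9 to 56.4 (median 50.2) CPM in WT non-Tfh and 116 to 163 (median 124) CPM in WT Tfh cells, a log2 change of 1.34 ± 0.10 (SE, edgeR adjusted p = 1.41e-08). In GC B cells it was 122 to 207 (median 162) CPM, with 58.3, 55.5, 52.0, 52.3 and 56.1 CPM in the non-GC B samples, a log2 change of 1.57 ± 0.12 (SE, edgeR adjusted p = 2.48e-07). The S1PR4-/- differences were 1.11 in Tfh and 1.65 in GC B cells. Lss, lanosterol synthase, rose in GC B cells (1.26 and 1.44) and in S1PR4-/- Tfh cells (0.73), and was at 0.54 in WT Tfh cells, under the fold threshold. Lbr, Msmo1 and Nsdhl, which act on the methyl groups and double bonds of the sterol ring, were called in GC B cells of both genotypes, by 0.69 and 0.85, 1.11 and 1.33, and 1.01 and 0.79. Dhcr7, the last reductase of the pathway, was instead called in Tfh cells of both genotypes, at 0.71 and 0.64, and was at 0.31 and 0.17 in GC B cells. Tm7sf2, a sterol reductase, was called in S1PR4-/- Tfh cells alone of these comparisons (0.77, with 0.55 in WT), Sc5d in S1PR4-/- GC B cells alone (0.66, with 0.52 in WT), and Hsd17b7 and Ebp in none.

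Stard4 encodes a soluble carrier that moves sterol between membranes. It was 8.21 to 11.5 (median 10.7) CPM in WT non-Tfh and 24.9 to 32.0 (median 29.8) CPM in WT Tfh cells, and 8.57, 7.09, 12.6, 7.26 and 12.3 CPM in WT non-GC B samples and 15.8 to 22.8 (median 20.5) CPM in WT GC B cells. Neither pair of groups overlapped. The log2 changes were 1.43 ± 0.10 (SE, edgeR adjusted p = 1.45e-08) in Tfh and 1.08 ± 0.17 (SE, edgeR adjusted p = 0.000126) in GC B cells, and 1.42 and 0.97 in S1PR4-/- mice.

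The 11 genes that were higher in all 4 comparisons were looked at for sequences they share near the start of transcription. RefSeq windows on GRCm38.p6, from 250 bases before to 50 bases after a start, were matched for 26 of the 33 members and 6 of the 11. The NF-Y box CCAAT, searched on both strands, occurred in the windows of 21 of 26 members (80.8%), beside 41.1% of 27025 genes with a window. The E-box CACGTG, which reads alike on both strands, occurred in 5 of 26 members (19.2%), beside 8.09%. The sterol regulatory element form TCACNCCAC, on either strand, occurred in 1 of 26, Hmgcs1, beside 1.44%. These are matches of letters in a short window and not measured sites. The stretches below are from members higher in all 4 comparisons, 5′ to 3′ on the strand of the gene, with the matched letters in capitals, ATTGG being CCAAT on the other strand.
Hmgcs1, sterol regulatory element, chr13:119690206-119690230, + strand, first capital at -137 from the start: tcaccgtcTCACCCCACttcccagg
Hmgcs1, NF-Y box, chr13:119690167-119690187, + strand, at -176: gtcccgccATTGGcaggcttg
Hmgcs1, NF-Y box, chr13:119690298-119690318, + strand, at -45: cgcctctcATTGGctgaaagc
Idi1, NF-Y box, chr13:8885553-8885573, + strand, at -45: tccagctgATTGGcgagcccg
Idi1, NF-Y box, chr13:8885584-8885604, + strand, at -14: aaggtgccATTGGctggcgac
Pmvk, NF-Y box, chr3:89454397-89454417, + strand, at -136: caggttggCCAATtcacagca
Cyp51, NF-Y box, chr5:4104714-4104734, - strand, at -29: gtccgccaCCAATctggtcct
Insig1, NF-Y box, chr5:28071188-28071208, + strand, at -216: ctcctcccATTGGctccggcg
Insig1, E-box, chr5:28071303-28071324, + strand, at -101: ggtgaggtCACGTGgctccggt
The NF-Y box was thus in the windows of Insig1, Hmgcs1, Pmvk, Idi1 and Cyp51 and not in that of Fads2. The 1 sterol regulatory element lay between 2 of the NF-Y boxes of Hmgcs1. Further NF-Y boxes of Hmgcs1, not printed above, were at -237 and 11. Negative positions count back from the base before the start, which is -1, and positive ones count on from the start, which is 1.

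Among the 4 genes of acetyl-CoA supply and fatty acid synthesis, Acss2, which makes acetyl-CoA from acetate, was lower in both germinal centre populations. Its level was 182 to 252 (median 193) CPM in WT non-Tfh cells and 20.3 to 29.1 (median 25.1) CPM in WT Tfh cells. In S1PR4-/- mice it was 124 to 182 (median 165) CPM in non-Tfh and 12.3 to 23.6 (median 15.5) CPM in Tfh cells. The groups lay far apart, with log2 changes of -3.07 ± 0.10 (SE, edgeR adjusted p = 1.66e-11) in WT and -3.19 ± 0.16 (SE, edgeR adjusted p = 1.24e-09) in S1PR4-/- mice. In WT B cells Acss2 was 21.3, 16.5, 22.1, 22.5 and 24.9 CPM in the non-GC samples and 7.45 to 12.1 (median 10.1) CPM in GC B cells, a log2 change of -1.13 ± 0.16 (SE, edgeR adjusted p = 4.2e-05). Acss2 was thus highest in non-Tfh cells.

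Acly, which makes cytosolic acetyl-CoA from citrate, was at 401 to 532 (median 461) CPM in WT non-Tfh and 495 to 530 (median 525.5) CPM in WT Tfh cells and was called in none of the 4 comparisons, with log2 differences from 0.07 to 0.22. Fasn, fatty acid synthase, was 82.2 to 193 (median 151) CPM in WT non-Tfh and 200.2 to 293 (median 234) CPM in WT Tfh cells, a log2 change of 0.73 ± 0.18 (SE, edgeR adjusted p = 0.00183). The GC B cell values were 0.65 in WT, where 4 of 18 alternatives brought it just under 1.5-fold, and 1.04 in S1PR4-/- mice, and in S1PR4-/- Tfh cells the difference was 0.52, under the fold threshold. Acaca, acetyl-CoA carboxylase, rose in Tfh cells by 0.70 and 0.69 on the log2 scale. Its differences in GC B cells were 0.21 (95% interval -0.23 to 0.66) and 0.08 (95% interval -0.33 to 0.49). Of the 31-base words of Acaca transcripts, 33.51% also occur in other genes (31.7% in Gm5182). Acaca counts can thus depend on how reads were shared out.

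The 5 genes of elongation and desaturation held the largest differences of the 33 genes. Of these, Fads1 (chr19:10182888-10196877, + strand, mm10) and Fads2 (chr19:10062765-10101746, - strand) lie near each other, as do Scd2 (chr19:44293674-44306864, + strand) and Scd1 (chr19:44394455-44407879, - strand). Fads2, the desaturase that starts the synthesis of long polyunsaturated fatty acids, was 0 to 0.413 (median 0.150) CPM in WT non-Tfh and 6.20 to 12.4 (median 9.24) CPM in WT Tfh cells. In B cells it was 0.322, 0.690, 0.449, 1.54 and 1.45 CPM in WT non-GC samples and 21.9 to 37.3 (median 26.2) CPM in WT GC B cells. No samples of the paired groups overlapped. The log2 changes were 5.74 ± 0.51 (SE, edgeR adjusted p = 1.54e-07) in WT Tfh and 4.99 ± 0.39 (SE, edgeR adjusted p = 2.82e-07) in WT GC B cells, and 6.85 and 5.13 in S1PR4-/- mice. Fads2 had 0 to 14 counts in the non-Tfh samples and 11 to 48 in the non-GC B samples, so the size of these ratios rests on few counts.

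Fads1, the next desaturase, was 14.4 to 22.5 (median 18.8) CPM in WT non-Tfh and 29.5 to 37.9 (median 34.0) CPM in WT Tfh cells, a log2 change of 0.83 ± 0.11 (SE, edgeR adjusted p = 6.15e-06). In WT non-GC B samples it was 0.760, 0.659, 3.19, 1.25 and 1.55 CPM, and in WT GC B cells 15.2 to 30.2 (median 23.0) CPM, a log2 change of 3.95 ± 0.38 (SE, edgeR adjusted p = 1.66e-06). In the other 3 populations no WT sample was under 14.4 CPM, while no WT non-GC B sample was over 3.19 CPM. Elovl6, which elongates saturated fatty acids, was called in GC B cells (1.51, standard error 0.36, in WT and 1.81, standard error 0.44, in S1PR4-/- mice), from 1.11, 3.77, 1.27, 1.51 and 1.96 CPM in WT non-GC samples to 3.02 to 8.08 (median 5.41) CPM in WT GC B cells, with 1 of the 5 non-GC samples inside the GC B range. In Tfh cells its differences were 0.23 and -0.37.

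Scd1 and Scd2 encode 2 closely related stearoyl-CoA desaturases that make monounsaturated fatty acids, and they behaved differently. Scd2 was 37.5 to 113 (median 69.8) CPM in WT non-Tfh and 243 to 342 (median 284) CPM in WT Tfh cells, a log2 change of 1.99 ± 0.21 (SE, edgeR adjusted p = 1.1e-06), with 2.02 in S1PR4-/- mice. In WT B cells it was 167, 193, 150.1, 139 and 141 CPM in non-GC and 160.5 to 273 (median 203) CPM in GC B cells, and the difference of 0.40 did not pass the fold threshold. Scd1 had 1245, 1195, 1016, 1101 and 1203 CPM in the 5 WT non-GC B samples and 896, 1035, 1196 and 1014 CPM in the 4 S1PR4-/- samples. It was 271 to 576 (median 359.8) CPM in WT and 273 to 363 (median 305) CPM in S1PR4-/- GC B cells, below every non-GC B sample. The log2 change was -1.57 ± 0.19 (SE, edgeR adjusted p = 9.28e-06) in WT and -1.76 ± 0.10 (SE, edgeR adjusted p = 8.71e-08) in S1PR4-/- mice. Scd1 and Scd2 share 5.84% and 4.83% of their 31-base words with Scd3.

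In T cells Scd1 was near 0. It was 0 to 1.75 (median 0.751) CPM in WT non-Tfh and 1.63 to 24.4 (median 6.19) CPM in WT Tfh cells, a log2 change of 3.64 ± 0.93 (SE, edgeR adjusted p = 0.00283), with overlapping groups. In S1PR4-/- mice, 5 of 6 non-Tfh samples had 0 counts and the sixth 0.157 CPM, and the gene was not tested between populations there. Markers of B cells, in which Scd1 is abundant, moved with this result. All 12 B cell markers were higher in WT Tfh than in WT non-Tfh cells, with summed CPM of 152 to 477 against 11.02 to 49.8, none of the 12 at 0 in every sample of a group. In WT non-GC B cells the same sum was 15130 to 16580. Their part in the Tfh difference was not tested.

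**Figure D3:**
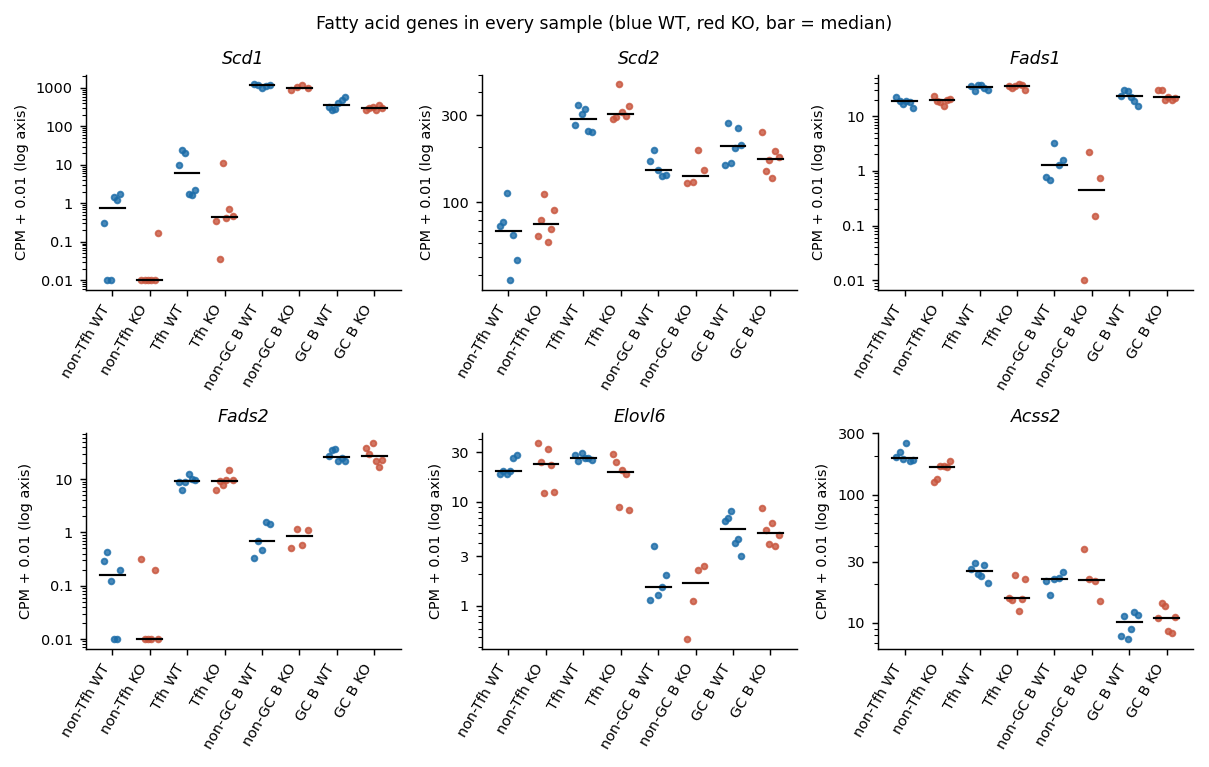
CPM of 6 genes of fatty acid and acetyl-CoA metabolism in each of the 45 samples, by population and genotype (blue WT, red KO, bar at the median, log axis with 0.01 added). Scd1 stands at 896 to 1245 CPM in non-GC B samples and near 0 in non-Tfh samples, Fads2 is low in both non-germinal centre populations, and Acss2 is highest in non-Tfh samples.

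B and T cells of WT mice were set side by side, although day of sorting and lineage cannot be told apart. Between non-GC B and non-Tfh cells, 6 of 33 genes were higher and 6 lower in B cells, beside 19.7% and 19.1% of all genes, and 22 passed the FDR alone, beside 57.3%. Scd1 (10.57 on the log2 scale, from a few counts in T cells) and Fads2 (2.47, from few counts in both groups) were higher in B cells. So were Scd2 (1.26), Hsd17b7 (1.01), Acaca (0.93) and Srebf2 (0.88). Fads1 (-3.55), Elovl6 (-3.44), Acss2 (-3.18), Tm7sf2 (-0.82), Mvd (-0.64) and Nsdhl (-0.61) were lower, Mvd and Nsdhl close to the fold threshold, which they missed in 2 and 5 of 18 alternatives. Between GC B and Tfh cells, 5 were higher and 5 lower, beside 20.1% and 24.2%, and 27 passed the FDR alone, beside 67.8%. Scd1 (5.28), Fads2 (1.6), Acat2 (1.27), Idi1 (0.99) and Sqle (0.77) were higher in GC B cells, and Elovl6 (-2.29), Tm7sf2 (-1.72), Acss2 (-1.35), Dhcr7 (-1.03) and Ebp (-0.80) were lower.

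Whether the step from the non-germinal centre to the germinal centre population differed between lineages was tested with an interaction term in WT mice, called at an FDR under 0.05 alone. The term is the signed log2 change in B cells minus that in T cells. It passed and was positive for 13 of 33 genes and negative for 6, beside 20.3% and 21.4% of all genes. Acat2 differed by 1.56 ± 0.19 (SE, edgeR adjusted p = 6.85e-07) and Fdps by 0.78 ± 0.12 (SE, edgeR adjusted p = 1.02e-05), with the larger rise in B cells. Scd2 differed by -1.65 ± 0.28 (SE, edgeR adjusted p = 5.25e-05) and Dhcr7 by -0.46 ± 0.13 (SE, edgeR adjusted p = 0.00755), with the smaller change in B cells. Acss2 is among the 13 because it fell in both lineages and fell further in T cells, a difference of 1.88 on this scale. Idi1, Cyp51, Fdft1 and Insig1 did not pass this test, with 95% intervals of 0.08 to 0.98, -0.16 to 0.48, -0.38 to 0.28 and -0.25 to 0.62. The Idi1 interval was wholly positive, and Idi1 passed in 8 of 29 alternatives.

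S1PR4-/- and WT cells were compared within each population to ask whether loss of the receptor changed these genes. In none of the 4 populations was a member called. In Tfh cells it was 0 of 33, beside 0.496% of all genes, and 6 of 33 had an unadjusted p under 0.05, beside 19.2%. In non-Tfh cells it was 0 of 31, beside 0.114%, and 8 had an unadjusted p under 0.05, beside 11.3%. In GC B cells it was 0 of 33, beside 0.0612%, and in non-GC B cells 0 of 33, beside 0.0537%, and in both no member had an unadjusted p under 0.05, beside 4.13% and 4.55%. DESeq2 and limma voom with the same thresholds also called 0 members in each population. At the FDR alone, 0 members passed in each population, beside 1.41%, 0.235%, 0.0612% and 0.0537% of all genes in the same order. WT and S1PR4-/- samples did not overlap for 0 members in Tfh, 1 in non-Tfh, 0 in GC B and 0 in non-GC B cells, beside 1.8%, 1.11%, 0.207% and 1.64% of all genes. The 95% interval of the difference lay wholly within 1.5-fold in either direction for 29 of 33 members in Tfh, 22 of 31 in non-Tfh, 29 of 33 in GC B and 19 of 33 in non-GC B cells.

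**Figure D4:**
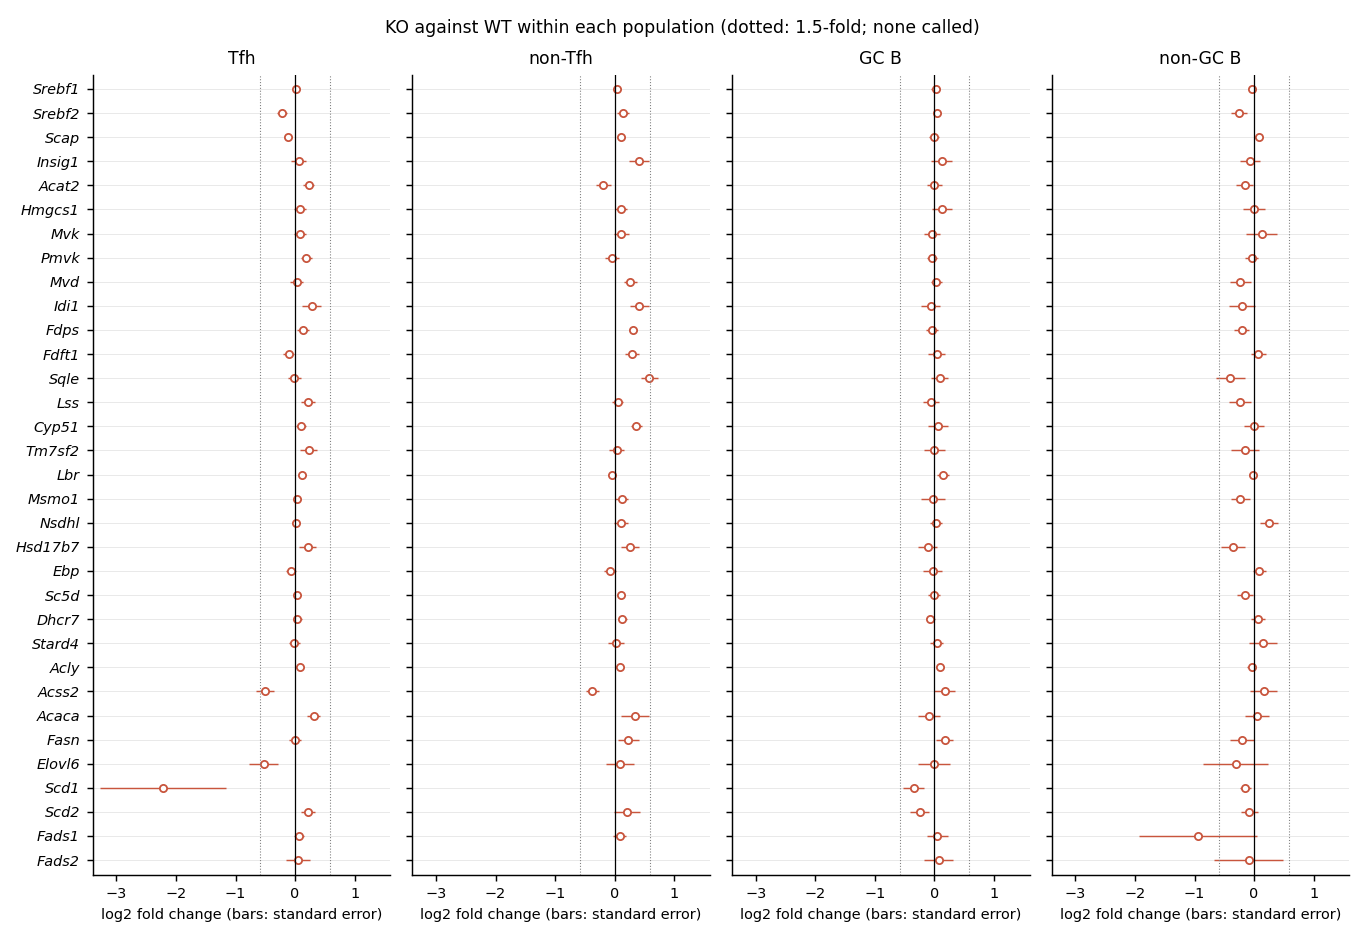
Log2 fold changes of the 33 genes between S1PR4-/- (KO) and WT cells in Tfh, non-Tfh, GC B and non-GC B cells, with standard errors as bars and 1.5-fold as dotted lines. All points are open because none was called, and the widest bars are those of Scd1 in Tfh cells and Fads1 in non-GC B cells.

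In non-Tfh cells, 26 of the 31 members had a positive difference (median 0.11), beside 6762 of 13197 genes (median 0). Fdps was 51.9 to 62.7 (median 57.4) CPM in WT and 63.0 to 83.5 (median 69.1) CPM in S1PR4-/- non-Tfh cells. The groups did not overlap, as for 1.11% of all genes, and the log2 difference was 0.31 ± 0.07 (SE, edgeR adjusted p = 0.0876). Sqle was 27.2 to 40.2 (median 31.1) CPM in WT and 35.2 to 62.3 (median 49.2) CPM in S1PR4-/- cells, a log2 difference of 0.58 ± 0.14 (SE, edgeR adjusted p = 0.1), and Cyp51 was 41.9 to 56.4 (median 50.2) and 50.6 to 71.7 (median 64.3) CPM, a difference of 0.36 ± 0.09 (SE, edgeR adjusted p = 0.117). Both pairs of groups overlapped. Insig1 (0.41), Idi1 (0.41), Fdft1 (0.29) and Mvd (0.26) also had an unadjusted p under 0.05. DESeq2 gave adjusted p-values of 0.00602 for Sqle and 0.0061 for Fdps, with both differences under 1.5-fold. All 10 proliferation genes also had positive differences in these cells (median 0.35), 0 called, and their part was not tested. Xist counts, a sign of female animals, were over 100 in 5 of 6 WT and 2 of 6 S1PR4-/- non-Tfh samples. The sexes were thus unequal between the genotypes compared.

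Acss2 had the lowest adjusted p in Tfh cells and did not pass the test. In Tfh cells it was 20.3 to 29.1 (median 25.1) CPM in WT and 12.3 to 23.6 (median 15.5) CPM in S1PR4-/- mice, a log2 difference of -0.51 ± 0.15 (SE, edgeR adjusted p = 0.0878). In non-Tfh cells it was 182 to 252 (median 193) and 124 to 182 (median 165) CPM, a difference of -0.38 ± 0.11 (SE, edgeR adjusted p = 0.17). The groups overlapped at their edges in both populations. DESeq2 gave adjusted p-values of 0.0197 and 0.0365. The other members with an unadjusted p under 0.05 in Tfh cells were Elovl6 (-0.53), Srebf2 (-0.22), Lbr (0.11), Acat2 (0.23) and Acaca (0.31). Elovl6 was 8.97 and 8.42 CPM in replicates 3 and 6 of the S1PR4-/- Tfh samples. The rest of that group had 18.67 to 28.95 CPM and the WT Tfh samples 24.62 to 29.49 CPM. Replicates 3 and 6 were also the lowest S1PR4-/- non-Tfh samples, at 12.13 and 12.34 CPM, with 22.44 to 36.86 CPM in the rest. All 10 proliferation genes had positive differences in Tfh cells (median 0.34), 0 called. Their sums were 2694 to 3788 CPM in WT and 3292 to 4577 CPM in S1PR4-/- Tfh cells, and their part was not tested.

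The widest interval in T cells was that of Scd1. It was 1.63 to 24.4 (median 6.19) CPM in WT and 0.0265 to 11.2 (median 0.428) CPM in S1PR4-/- Tfh cells, a log2 difference of -2.22 ± 1.06 (SE, edgeR adjusted p = 0.276) with a 95% interval of -4.5 to 0.06. The 3 WT samples with the highest values were also the 3 with the highest summed B cell markers, at 417 to 477 CPM, while the other 3 had 152 to 236 CPM of markers and 1.63 to 2.19 CPM of Scd1. By summed CPM the S1PR4-/- samples did not follow the same order. Replicates 2 and 4, at 262 and 267.5 CPM of markers, had 0.0265 and 0.404 CPM of Scd1. A sum is weighted to the most abundant markers, so it need not follow the other markers of the list. Cd22, the 1 marker without a negative difference between genotypes in Tfh cells, was at 0.1. Of the 12 B cell markers, 11 had negative differences between S1PR4-/- and WT Tfh cells (median -2.2, 0 called, 8 with an unadjusted p under 0.05), with sums of 152 to 477 CPM in WT and 150 to 279 CPM in S1PR4-/- samples. Of 7 plasma cell markers tested, 3 were lower in S1PR4-/- Tfh cells, Mzb1 (-4.35), Jchain (-3.64) and Derl3 (-1.88), with summed CPM of 351 to 743 in WT and 306 to 339.5 in S1PR4-/- samples. Another fit took the mean log2 CPM of the 12 B cell markers, not their summed CPM, as a covariate. The log2 difference was then -0.05 for Scd1 (edgeR adjusted p = 0.985) and -0.19 for Acss2 (edgeR adjusted p = 0.701). This covariate was 1 to 4.5 (mean 2.92) in WT and -1.32 to 3.38 (mean 0.36) in S1PR4-/- Tfh samples. Because it moved with genotype, the fit cannot tell marker level and genotype apart. Without the third S1PR4-/- Tfh sample, which had 11.2 CPM of Scd1, both Scd1 (-4.7, edgeR adjusted p = 0.0264) and Acss2 (-0.62, edgeR adjusted p = 0.0384) were called as lower. Xist counts, a sign of female animals, were over 100 in 5 of 6 WT and 2 of 6 S1PR4-/- Tfh samples, and no member was called with Xist as a covariate.

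**Figure D5:**
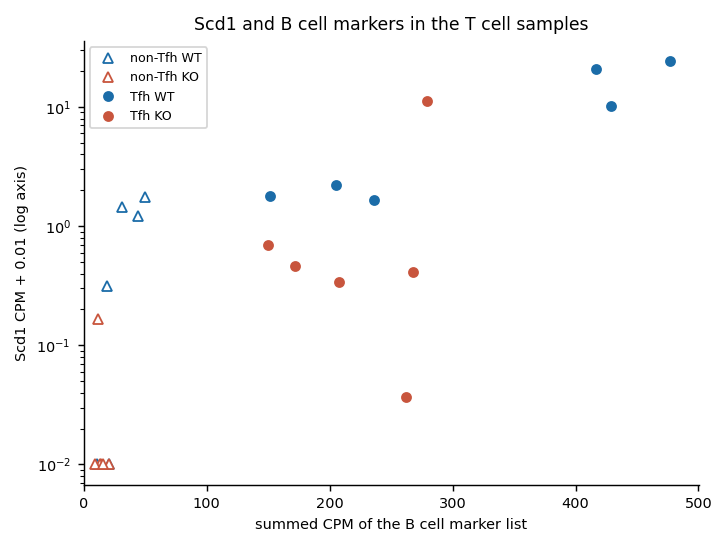
Scd1 in CPM (log axis, 0.01 added) against the summed CPM of 12 B cell markers in the 24 T cell samples, with filled circles for Tfh and open triangles for non-Tfh cells, blue for WT and red for S1PR4-/- (KO). The 3 WT Tfh samples at 417 to 477 marker CPM have 10.2 to 24.4 CPM of Scd1. In S1PR4-/- Tfh cells 1 sample at 279 marker CPM has 11.2 CPM, while 2 others at 262 and 267.5 marker CPM have 0.0265 and 0.404 CPM. The sum is weighted to the most abundant of the 12 markers and need not follow the others.

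In GC B cells the largest differences between genotypes were those of Scd1 (-0.35, 95% interval -0.73 to 0.03) and Scd2 (-0.25, -0.59 to 0.10), and the lowest adjusted p of the members in edgeR was 0.985. Sqle, Idi1 and Fdps differed by 0.09, -0.06 and -0.04, with intervals of -0.21 to 0.40, -0.41 to 0.29 and -0.25 to 0.17. In non-GC B cells the median difference was -0.08, and Sqle was at -0.40 (95% interval -0.92 to 0.13), with the lowest value, 13.2 CPM, in the third S1PR4-/- sample. With 5 and 4 samples, intervals in non-GC B cells were wider, up to -3.11 to 1.23 for Fads1. The summed plasma cell markers in GC B cells were 4449 to 9472 CPM in WT and 2387 to 18950 CPM in S1PR4-/- mice.

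The genotype effect was also compared between populations with an interaction term. For Tfh against non-Tfh cells 0 of 33 members passed an FDR of 0.05, beside 0.0139% of all genes, and 6 had an unadjusted p under 0.05, beside 9.2%. Sqle had the lowest adjusted p, with a difference of -0.59 ± 0.19 (SE, edgeR adjusted p = 0.324). For GC B against non-GC B cells 0 of 33 passed, beside 0% of all genes, and 0 had an unadjusted p under 0.05, beside 4.58%. DESeq2 and limma voom called no member in either test.

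The genes around the pathway were given as 10-gene lists. Of the sterol uptake, storage and efflux genes, 4 were lower and 3 higher in WT Tfh cells, and 7 of 9 tested were lower and 1 higher in WT GC B cells. The shares of all genes to set beside these and the next counts are 22.8% higher and 20.4% lower in WT Tfh, 22.3% and 21.1% in S1PR4-/- Tfh, 24.8% and 23.1% in WT GC B, and 25.3% and 22.9% in S1PR4-/- GC B cells. In S1PR4-/- mice 5 of 10 were lower and 2 higher in Tfh, and 7 lower and 2 higher in GC B cells. Lower genes included Abca1, a sterol exporter (-2.94 and -3.07 in WT and S1PR4-/- Tfh cells, -2.1 in WT GC B cells), and Mylip, a ubiquitin ligase that limits lipoprotein uptake (-1.82 in Tfh cells of both genotypes, -2.12 and -2.44 in GC B cells). Abcg1, another exporter, fell by 1.83 and 2.69 on the log2 scale in WT and S1PR4-/- GC B cells. Soat2, which esterifies sterols, was higher by 2.52 and 2.54 in Tfh cells and by 3.21 in S1PR4-/- GC B cells.

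Of the list of SREBP processing and sterol sensing, 1 gene was higher in Tfh cells of each genotype, Sec24d (0.69 and 0.63), part of the coat that carries cargo to the Golgi. Among GC B cells 3 were higher and 1 lower in WT and 3 higher and 3 lower in S1PR4-/- mice, with Sec24d at 2.95 and 3.07. Of the isoprenoid branch, with 10 genes, 2 were higher and 3 lower in WT Tfh cells, 2 and 1 in S1PR4-/- Tfh cells, and 3 and 1 in GC B cells of each genotype. Pdss1, which makes the coenzyme Q tail, was at 0.67 and 0.63 in Tfh and 1.36 and 1.46 in GC B cells. Of acetyl group and NADPH supply, 9 genes were tested, and 3 were higher and 1 lower in WT Tfh, 4 and 1 in S1PR4-/- Tfh, 4 and 0 in WT GC B, and 5 and 0 in S1PR4-/- GC B cells. Acss1, the mitochondrial counterpart of Acss2, was lower in Tfh cells (-1.39 and -1.46), and Tkt, of the pentose phosphate pathway, was higher in GC B cells (1.13 and 1.19). Of fatty acid oxidation, Hadha was higher in all 4 comparisons (0.65 to 0.80), Acadm was lower in Tfh cells (-1.05 and -0.95), and the other 8 genes were not called. Of glycerolipid synthesis, 3 were higher and 2 lower in WT Tfh, 1 and 2 in S1PR4-/- Tfh, 2 and 3 in WT GC B, and 3 and 3 in S1PR4-/- GC B cells, with Lpin1, a phosphatidate phosphatase, lower throughout (-0.83 and -1.06 in Tfh, -1.78 and -2.02 in GC B cells). Between genotypes, none of these genes was called in any population. Some passed the FDR with less than a 1.5-fold difference and are named after their values were seen. Acss1 was 169 to 205 CPM in WT and 119 to 146 CPM in S1PR4-/- non-Tfh cells, without overlap, a log2 difference of -0.46 ± 0.07 (SE, edgeR adjusted p = 0.00837). In Tfh cells it was 54.4 to 91.6 and 36.5 to 58.9 CPM, overlapping, a difference of -0.55 ± 0.12 (SE, edgeR adjusted p = 0.0491). Lpin1 (-0.30, edgeR adjusted p = 0.023, no overlap), Npc2 (-0.35, edgeR adjusted p = 0.0476) and Bub1 (0.43, edgeR adjusted p = 0.0476) also passed the FDR in Tfh cells. Among the marker lists of other cells, Mzb1 (-3.77) was lower in S1PR4-/- non-Tfh cells. Markers of myeloid cells had summed CPM of 24.5 to 441 in Tfh, 10.1 to 43.1 in non-Tfh, 41.7 to 223 in GC B and 14.6 to 55.9 in non-GC B cells.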

How the data were processed

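RNA of 45 sorted cell samples was sequenced. The study's methods name total RNA at standard or low input, capture of mRNA on oligo-dT beads, and an Illumina Stranded Total RNA kit. The table used here, deposited by the authors, holds RSEM expected counts for 55450 genes on mm10, of which 8.83% of values were not whole. Per the labels, cutadapt 2.10, STAR 2.5.3, Picard and RSEM 1.3.0 were used. The expected counts were rounded here, filtered with filterByExpr, scaled by TMM and tested by edgeR 4.0.16 (R 4.3.3) with glmQLFit and glmQLFTest between the groups compared, or with an interaction term over 4 groups. Genes were called at an FDR under 0.05 and a fold over 1.5, interactions at the FDR alone. DESeq2 1.42.0, limma 3.58.1 voom, other scaling, filter, samples and covariates were alternatives. With 31 to 33 members tested per comparison and totals of 26299429 to 45548215 counts, precision was set by the spread between samples. The test was checked on simulated counts. Log2 CPM used a prior count of 2.

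Gene coordinates and exon lengths came from GENCODE M21 on mm10, which matched 55423 symbols, while the study's methods name another release. RSEM shares reads between genes of like sequence by a model, so values of genes with close copies are estimates, and 111 symbols occurred more than once. Motif windows came from RefSeq on GRCm38.p6. All 33 members were described, and from each companion list (SREBP processing and sterol sensing, sterol uptake, isoprenoid branch, acetyl group and NADPH supply, fatty acid oxidation, glycerolipid synthesis, proliferation) at most 3 called genes per comparison with the largest absolute log2 fold change were eligible to be named. The rule for members uses no measured value, but members, lists and tests were chosen with earlier results of these data known.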

Additional observations from a re-analysis of the deposited data

Results flagged for a closer look

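A sample was set apart when its gap to the nearest other sample of its group was over the Dixon limit for the group's size, which chance gives in about 1 set in 20. Of 264 sets of a member and a group, 16 (6.1%) held such a sample. In WT Tfh cells these were replicate 1 for Tm7sf2 (highest, 13.63 CPM), Dhcr7 (highest, 111.6 CPM) and Acly (lowest, 495.2 CPM) and replicate 4 for Sqle (highest, 101.4 CPM). S1PR4-/- Tfh replicate 3 was highest for Scd1 (11.22 CPM) and Scd2 (442.3 CPM). In WT non-Tfh cells, replicate 1 was highest for Scap (133.5 CPM) and replicate 4 for Lss (32.43 CPM). In S1PR4-/- non-Tfh cells, replicate 1 was highest for Ebp (79.27 CPM) and replicate 6 for Scd1 (0.1566 CPM, the only sample above 0). In WT GC B cells, replicate 2 was highest for Insig1 (69.24 CPM), replicate 4 was highest for Dhcr7 (52.8 CPM) and replicate 6 was lowest for Stard4 (15.77 CPM). S1PR4-/- GC B replicate 6 was lowest for Scap (84.61 CPM). In WT non-GC B cells, replicate 2 was lowest for Ebp (38.47 CPM) and replicate 4 was highest for Sc5d (71.92 CPM).

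For 19 members the difference between germinal centre and other cells in WT mice was unequal in the 2 lineages, by the interaction term in edgeR. The values are the log2 fold change in B cells minus that in T cells. It was positive for Fads1 (3.05), Acss2 (1.88, a smaller fall in B cells), Acat2 (1.56), Elovl6 (1.21), Fdps (0.78), Mvd (0.75), Lss (0.65), Hmgcs1 (0.63), Nsdhl (0.60), Msmo1 (0.57), Sc5d (0.56), Sqle (0.55) and Lbr (0.40). It was negative for Scd1 (-5.25), Scd2 (-1.65), Tm7sf2 (-0.85), Srebf2 (-0.51), Dhcr7 (-0.46) and Pmvk (-0.38), whose call was lost in 17 of 29 alternatives. Day of sorting differed between the lineages in the same way and cannot be told apart from them.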

How the results depend on the processing

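Single calls were followed only for members that were called, or had an unadjusted p under 0.05, in the main test. Scd1 between genotypes in Tfh cells was added to them. Over all alternatives, these gave 3855 unchanged, 134 gained and 38 lost values, and 0 with a changed sign. Members with smaller differences in the main test are not in these values, but the numbers of members called below cover all members. At an FDR under 0.05 alone, the number of members called rose to 26 in WT and 28 in S1PR4-/- Tfh against non-Tfh cells, 22 in non-GC B against non-Tfh cells and 27 in GC B against Tfh cells. Leaving out 1 sample gave 0 to 2 members for S1PR4-/- against WT Tfh cells and 0 in the other genotype comparisons and interactions. The 2 were Acss2 and Scd1, without S1PR4-/- Tfh replicate 3. Leaving out 1 sample gave 17 to 19 and 15 to 19 members for Tfh against non-Tfh cells (WT, S1PR4-/-), 21 to 22 and 23 for GC B against non-GC B cells, 12 to 14 for non-GC B against non-Tfh cells, 10 to 11 for GC B against Tfh cells and 18 to 22 for the difference between lineages. The Pmvk difference between lineages was lost in 17 of 29 alternatives, with DESeq2 size factors (edgeR adjusted p = 0.0529), without the filter (edgeR adjusted p = 0.104) and in 15 that left out 1 sample (edgeR adjusted p from 0.0526 to 0.122). Calls near 1.5-fold were lost in 4 of 18 alternatives for Fasn in WT GC B cells, 5 and 2 of 18 for Nsdhl and Mvd in non-GC B against non-Tfh cells, and 2 and 3 of 19 for Insig1 and Hmgcs1 in S1PR4-/- Tfh cells.

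Over all genes, calls between genotypes in Tfh cells went from 67 to 184 in DESeq2, 153 with all 8 groups in 1 fit, 151 with the Xist covariate and 12 with the marker covariate. In non-Tfh cells they went from 15 to 56, in GC B cells from 8 to 14 and in non-GC B cells from 7 to 16 in DESeq2, and to 25 in non-GC B cells with all 8 groups. The T cell genotype interaction went from 2 to 76 in DESeq2 and 10 with the replicate block, and that of B cells from 0 to 6 in DESeq2 and 5 with all 8 groups. The causes were not tested.

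The labels do not say that a replicate number marks an animal. The correlation of same-numbered samples was 0.05 to 0.2 in WT and 0.09 to 0.16 in S1PR4-/- T cells, where 4 and 6 of 6 samples correlated best with their own number, and 0 to 0.1 and -0.05 to 0.02 in WT and S1PR4-/- B cells, where 4 of 5 and 0 of 4 did. Same-numbered samples were on the same side of 100 Xist counts in 6 of 6 and 6 of 6 pairs of T cell samples and in 4 of 5 and 1 of 4 of B cell samples. This is a hint of shared animals in T cells, but not every correlation passed 0.1 in any comparison, so the numbers were not taken as pairs. With the replicate number as a block, 17 and 18 members were called for Tfh against non-Tfh cells, 22 and 23 for GC B against non-GC B cells, 11 for non-GC B against non-Tfh cells, 11 for GC B against Tfh cells, 19 for the difference between lineages and 0 for each genotype comparison and interaction. Under the block Scd1 in WT Tfh cells (3.08, edgeR adjusted p = 0.0681) and Fads2 in non-GC B against non-Tfh cells (edgeR adjusted p = 0.106) did not pass. Members near 0 counts in a group (Scd1 and Fads2 in T cells, Fads1 and Fads2 in non-GC B cells) have fold changes that depend on few counts.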
